A study of Mus musculus with 6 samples.

Results

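The miRNAs mir-675 and mir-483 come from neighbouring imprinted genes of the mouse, H19 and Igf2. They were taken by name, as the 2 entries mir-675 and mir-483 among the 1006 miRNA precursor entries of the deposited small RNA table. The pair was selected on values of these same libraries, the lower level of mir-675 in vesicles from sheared myoblasts, so the values of both members are given as a description without a test.

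Small RNA of 6 libraries was compared. Myo-EVs (2 libraries) are the extracellular vesicles that C2C12 cells, an established line of mouse myoblasts, released into medium with EV-depleted serum, and FFSS-Myo-EVs (2 libraries) are those of C2C12 cells kept under fluid flow shear stress (FFSS) on an orbital shaker, calculated by the study at 6 dyn/cm2 for 48 hr. The cells were represented by 1 library of primary osteoblasts (OB) and 1 of primary bone marrow (BM), both of the mouse. The C2C12 cells themselves were not sequenced in these libraries, so the EV values are of released RNA only. The labels give a mixed background, 81.25% C57BL/6J with 18.75% 129/SvJ, for all 6 libraries, the vesicles of the cell line included, and an age of 8 to 10 weeks for the OB and BM mice. The methods of the study instead describe calvarial osteoblasts pooled from 5 male mice of 3 to 5 days, at the second passage, and marrow from 1 male mouse of 8 weeks. The growth protocol in the labels speaks of vitamin D or dexamethasone for all libraries and not of FFSS, and the EV groups were taken from the sample titles. No source says whether EV libraries of 1 group came from separate cultures, so their spread may be technical.

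H19 makes a long noncoding RNA from the maternal chromosome, and Igf2 makes the growth factor IGF-II from the paternal one. An insulator between them, bound by CTCF on the maternal chromosome, lets shared enhancers reach only one of the genes on each chromosome. The hairpin of mir-675 is cut out of H19 RNA itself, and mir-483 lies in an intron of Igf2. H19 is abundant in embryonic muscle and in differentiating myoblasts, and miR-675 has been described as a brake on growth and as a promoter of myoblast differentiation. The miR-483 forms are known for being made together with Igf2 in fetal tissues and in some tumours.

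Both precursors lie on the minus strand of chromosome 7 of GRCm38, the build that the labels call mm10. The precursor of mir-675 is at chr7:142577064-142577147, 84 bases long. In the GENCODE M21 annotation it lies inside H19 (142575529 to 142578143), in exon 1 or exon 2 of 3 of the 4 H19 transcripts that span it and in an intron of the other. The precursor of mir-483 is at chr7:142654924-142654996, 73 bases long. It lies inside Igf2 (142650766 to 142666816), in an intron of each of the 7 Igf2 transcripts that span it, and in an intron of the overlapping gene Gm49394. The 2 precursors are 77.8 kb apart. Their sequences from RefSeq (GRCm38.p6) are shown because the table counts reads per precursor and does not list the arms apart. Capitals mark the 5p and the 3p mature form in each hairpin.
mir-675 precursor: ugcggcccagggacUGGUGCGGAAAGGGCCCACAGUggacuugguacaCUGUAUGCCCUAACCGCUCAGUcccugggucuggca
mir-483 precursor: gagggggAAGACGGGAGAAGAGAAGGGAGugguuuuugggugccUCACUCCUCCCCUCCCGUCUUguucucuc

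The seed of a mature miRNA, bases 2 to 8, is the stretch that pairs with target mRNAs. In the mature forms below, capitals mark the seed.
mmu-miR-675-5p: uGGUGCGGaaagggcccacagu
mmu-miR-675-3p: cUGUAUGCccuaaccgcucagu
mmu-miR-483-5p: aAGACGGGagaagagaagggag
mmu-miR-483-3p: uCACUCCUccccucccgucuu
None of these 4 seeds was found in another of the 1679 mature forms in the RefSeq table, so the members form no seed family with each other or with another entry matched there. Neither precursor shared an 18-base stretch with another miRNA precursor in RefSeq. Among GENCODE transcripts of other genes, the precursor of mir-675 shared its whole length with its host H19 and 19 bases at the 3p arm with Gm38155, and that of mir-483 shared 18 bases at the 3p arm with Dnajc6. A fragment of H19 RNA from the same bases and a processed miR-675 read could thus not be told apart in a count per precursor.

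The total count was 5181296 in OB, 6092460 in BM, and between 2414132 and 3029524 in the EV libraries. Values are given as counts and as the authors' normalized expression value, which is the count times 1 constant per library, from 0.397 in BM to 1.20 in the second Myo-EV library. Each 95% interval is an exact Clopper-Pearson interval of the count in its library on that scale. Such intervals cover counting error only and hold no spread between libraries. Reads amplified by PCR without molecular identifiers are not independent molecules, so the intervals may be too narrow even for that error. Each cell type has a single library, and its levels are without replicate error. The muscle miRNA mir-206, checked as a marker of the myoblast, had normalized values from 1969 to 2610 in the EV libraries against 91.7 in OB and 7.9 in BM. Other muscle entries differed, and mir-1a-1 and mir-1a-2 were at 30.6 and 31.4 in BM against 0 to 6.0 in the EV libraries. Of the 5 muscle entries compared with BM, 3 were over 4-fold higher in Myo-EVs and 2 over 4-fold lower. Over all 393 entries compared, these shares were 31.0% and 25.4%. The leukocyte miRNA mir-223 was at 9710 in BM, 122 in OB and 7.0 or less in the EV libraries.

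Of the 2 members, mir-675 was found in all 6 libraries and was highest in Myo-EVs, whereas mir-483 was found in osteoblasts and was nearly absent elsewhere. The H19 miRNA and the Igf2 miRNA thus had their highest levels in different samples. The locus is described as active in myoblasts, and of its 2 miRNAs only mir-675 was above 3 counts in the vesicles of C2C12 cells.

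The normalized expression value of mir-675 was 304.2 in the first Myo-EV library (303 counts) and 402.4 in the second (336 counts). In the FFSS-Myo-EV libraries it was 88.7 (89 counts) and 97.5 (88 counts). It was 24.3 in OB (44 counts, 95% interval 17.7 to 32.6) and 2.4 in BM (6 counts, 0.875 to 5.19). The order of the values was thus Myo-EVs, FFSS-Myo-EVs, OB and BM. The counting intervals of the FFSS-Myo-EV, OB and BM libraries did not overlap between groups. Those of the Myo-EV libraries did not overlap with each other either, so non-overlap is no measure of a difference between groups. Among the 1006 entries, mir-675 ranked 139 and 144 by count in the Myo-EV libraries, 205 and 211 in the FFSS-Myo-EV libraries, 307 in OB and 486 in BM.

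The normalized expression value of mir-483 was 292.7 in OB (530 counts, 95% interval 268.3 to 318.7), where it ranked 172. The entry had 1 count in the first FFSS-Myo-EV library and 0 counts in the other 3 EV libraries and in BM. A floor of 3 counts was taken for a count of 0, which is a normalized value of 3.01 and 3.59 in the Myo-EV libraries, 3.32 in the second FFSS-Myo-EV library and 1.19 in BM. The floor is a one-sided limit, and the two-sided exact 95% intervals of the same zeros reach somewhat higher, to 3.70 and 4.42 in the Myo-EV libraries and 1.465 in BM. No order among the EV and BM libraries could be read from these counts, and no fold change between FFSS-Myo-EVs and Myo-EVs was formed for mir-483.

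**Figure D1:**
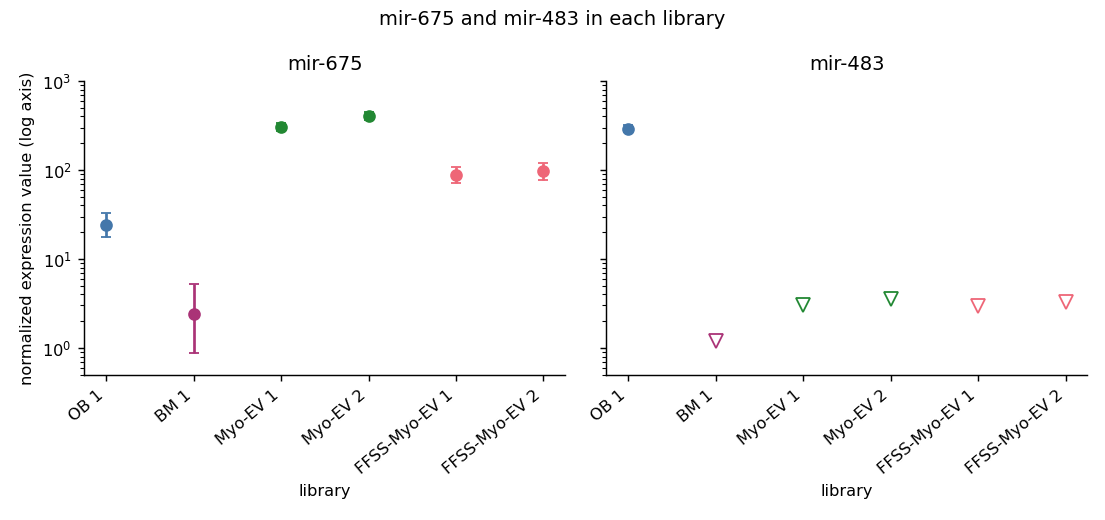
Normalized expression value (log axis) of mir-675 (left) and mir-483 (right) in each of the 6 libraries. Points are single libraries with exact 95% counting intervals, and open triangles mark the value of 3 counts in libraries with 3 counts or fewer. The Myo-EV libraries at 304.2 and 402.4 are the highest for mir-675, and OB at 292.7 is the only library above 3 counts for mir-483.

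The reads of the 2 entries, not corrected for the length of the precursors, were also divided within each library, a share that no scaling between libraries can change. In OB, mir-675 took 44 of 574 reads, or 7.67% (95% interval 5.63 to 10.2, Clopper-Pearson). In the 4 EV libraries it took 303 of 303, 336 of 336, 89 of 90 and 88 of 88 reads, with lower limits of the interval from 94.0% to 98.9%. In BM it took 6 of 6 reads, and the lower limit was 54.1%. The pair was thus mostly mir-483 in the OB library and mostly mir-675 in the EV libraries, and the BM library had too few reads to be placed with the same precision.

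The comparison of EVs with and without FFSS was the one that brought mir-675 into view. The mean normalized expression value was 353.3 ± 69.4 (SD, n = 2) in Myo-EVs and 93.1 ± 6.2 (SD, n = 2) in FFSS-Myo-EVs, so that Myo-EVs had 3.80 times the mean of FFSS-Myo-EVs. The lower Myo-EV library was 3.12 times the higher FFSS-Myo-EV library. The replicates differed by 1.32 times in Myo-EVs, where their counting intervals (270.9 to 340.4 and 360.5 to 447.8) did not overlap, and by 1.10 times in FFSS-Myo-EVs. On TMM-scaled counts the log2 fold change was -2.02 with a standard error of 0.14 from the replicates. Over the 354 entries with a mean normalized value of at least 10 in the EV libraries, the median log2 fold change was -0.01, with 5% of entries at or below -1.08 and 5% at or above 0.91. No other entry among the 354 had a log2 fold change as low. Fewer vesicles that carry mir-675 and less mir-675 per vesicle cannot be told apart in such RNA.

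The groups did not overlap in 214 of the 354 entries (60.5%), mir-675 among them. In edgeR's quasi-likelihood test of the 4 EV libraries with Benjamini-Hochberg adjustment, 43 entries (12.1%) were higher in FFSS-Myo-EVs and 65 (18.4%) were lower, together 30.5%, and mir-675 was one of the latter, which adds nothing to the choice of the entry. With the authors' scaling, which raises FFSS-Myo-EVs by 0.12 on the log2 scale compared to TMM, 54 were higher and 39 lower. Without the first or the second FFSS-Myo-EV library, 44 and 45 entries were called. The precursor of mir-675 was rich in G and C (63.1%, at or above 91.4% of the 350 tested entries with a sequence, whose median was 50.0%). With a correction for GC content the log2 fold change of mir-675 was -1.82, and the part of base composition in the difference was not tested further.

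Muscle miRNAs were set beside mir-675, as other products of the myoblast. Of the 8 entries for mir-1a, mir-133a, mir-133b, mir-206, mir-208b and mir-499, 4 reached the level for testing, 3 fell (background 18.4% lower) and 0 rose, with a median log2 fold change of -1.58. The entry mir-133b, made from a noncoding RNA of differentiating myoblasts, was at 45.2 and 35.9 without FFSS against 13.9 and 12.2 with it. Its log2 fold change was -1.67 with a prior count of 1 and -1.75 in edgeR (adjusted p = 0.000139 in edgeR). The entry mir-133a-1 had an adjusted p of 0.00647 and mir-133a-2 one of 0.000737 in the same edgeR test. These are copies of 1 miRNA with nearly the same values, from 17.1 to 20.4 in Myo-EVs and from 4.4 to 10.0 in FFSS-Myo-EVs, and count as 1 observation. The call of mir-133a-1 was lost without either Myo-EV library (adjusted p = 0.0567 and 0.0629 in edgeR), without the second FFSS-Myo-EV library (0.261) and in DESeq2 (0.182), and that of mir-133a-2 in DESeq2 (0.0803). The most abundant muscle miRNA, mir-206, was at 1969 and 2365 without FFSS against 2610 and 2605 with it, a log2 fold change of 0.15 (adjusted p = 0.420 in edgeR). It was called higher only without the second Myo-EV library, with a log2 fold change of 0.32 (adjusted p = 0.00722 in edgeR). The entries mir-1a-1 and mir-208b were at 0 in all EV libraries. The muscle list thus did not move as 1 group. Its members mir-133a and mir-133b went the way of mir-675, while mir-206, which made up most of the summed level, did not.

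Markers of blood and serum were read in the same libraries, since vesicles were collected from medium with serum. The summed value of the 5 entries mir-122, mir-144, mir-451a, mir-486a and mir-486b was 169 and 235 without FFSS against 244 and 257 with it. Of the 4 tested, 2 rose (background 12.1% higher) and 0 fell, with a median log2 fold change of 0.70. The other 2, mir-486a and mir-486b, made up most of the summed level and were not called. Their values were close, at 76.3 and 79.3 in the first Myo-EV library and 90.8 and 111.9 in the second FFSS-Myo-EV library. The entries mir-486a and mir-486b may thus not be separate observations. The log2 fold changes of mir-486a and mir-486b were -0.04 and 0.06 (adjusted p = 0.942 and 0.935 in edgeR), so the list did not move as 1 group. The erythroid miRNA mir-451a was at 3.0 and 4.8 without FFSS against 25.9 and 17.7 with it (adjusted p = 6.79e-05 in edgeR). Its values without FFSS were near the floor of 3 counts, which is 3.01 and 3.59 in the Myo-EV libraries. The liver miRNA mir-122 was at 6.0 and 4.8 without FFSS against 17.9 and 15.5 with it (adjusted p = 0.0132 in edgeR), a call lost without either Myo-EV library (0.0594 and 0.0813) or the first FFSS-Myo-EV library (0.116) and with no filter on low values (0.0619), while DESeq2 gave it no adjusted p. The 3 leukocyte entries mir-150, mir-223 and mir-342 summed to between 65.9 and 74.1 in the EV libraries against 18050 in BM, and 0 of the 1 tested were called. The leukocyte entries mir-142a and mir-142b were not part of this sum. The 6 mesenchymal entries for mir-199a, mir-199b, mir-214, mir-143 and mir-145a summed to between 335100 and 437700 in Myo-EVs and between 386000 and 401100 in FFSS-Myo-EVs, and 1 of the 6 was called, as higher. None of the 5 blood and serum entries was at 0 in all EV libraries, and the part of these markers in the difference of mir-675 was not tested.

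**Figure D2:**
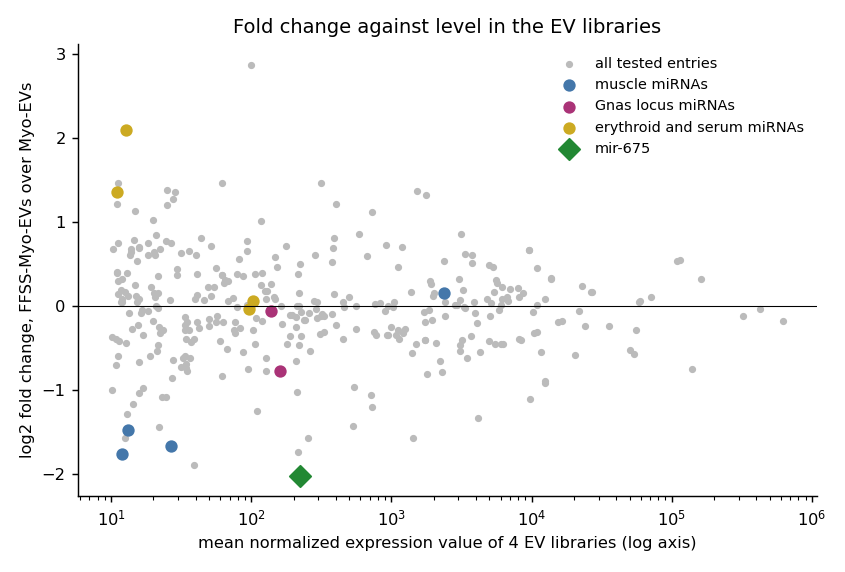
Log2 fold change between FFSS-Myo-EVs and Myo-EVs on TMM-scaled counts against the mean normalized expression value of the 4 EV libraries (log axis), for the 354 tested entries. The diamond for mir-675 is the lowest point at -2.02, 3 muscle entries (mir-133a-1, mir-133a-2 and mir-133b) lie between -1.77 and -1.48, and mir-206 lies at 0.15.

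Compared to the cells, mir-675 was higher in the vesicles. The Myo-EV mean was 14.5 times the OB value (10.8 to 20.01 from the counting interval of the 44 OB counts, and 12.5 and 16.6 for the single Myo-EV libraries). A value over 4 times that of OB was found for 24.2% of the 422 entries compared, and 53 entries, mir-675 included, had a ratio at least as high, so that such a ratio was not rare. The Myo-EV mean was 148 times the BM value (68.1 to 404 from the 6 BM counts). There, 31.0% of 393 entries were over 4 times the BM value, and 17 entries had a ratio as high. For FFSS-Myo-EVs the ratios were 3.83 to OB (2.85 to 5.27) and 39.0 to BM (17.95 to 106). The lower value in FFSS-Myo-EVs brought mir-675 nearer to the level of osteoblasts and left it above. The counting intervals did not overlap, but they hold no spread between libraries, and OB is 1 library. OB was 10.2 times BM for this entry.

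For mir-483 the direction was the opposite. OB was at least 88.6 times the Myo-EV mean and at least 246 times BM, with the floor of 3 counts per library put in for the libraries at 0, and these bounds hold for that floor only. A value over 4-fold lower in Myo-EVs than in OB was found for 28.2% of the 422 entries, and one over 4-fold lower than in BM for 25.4% of 393, where mir-483 was too low to be compared. The entry passed the level of 10 for this comparison only through its OB value. Since OB is 1 library, these ratios have no replicate check, and they compare a library of vesicles with a library of cells.

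The rank of mir-483 among OB entries that were missing elsewhere was then described, after its values had been seen. A normalized value of at least 100 in OB was found for 221 entries. Of these, 46 had 3 counts or fewer in each EV library, and 42 had 3 counts or fewer in BM as well. Among these 42, mir-483 ranked 31 by its OB level. The other 41 lay on chromosome 12 between the start of Meg3 and the end of Mirg (109541001 to 109749460), in the imprinted Dlk1-Dio3 region, and mir-483 was the only one from elsewhere. The 42 were taken for a high OB value and low counts elsewhere. Names listed below for the region made up 47 of the 422 entries compared with OB. The share of the region among the 221 entries was not counted, so the place of mir-483 among the 42 is a description only. The Dlk1-Dio3 region holds a large cluster of miRNAs that are made from the maternal chromosome, as part of long noncoding RNAs such as Meg3 and Mirg.

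The entries whose pattern over the 6 libraries was nearest to mir-483 were from that cluster too. Nearness was the root-mean-square difference of log2(normalized value + 1), each profile centred on its own mean, over 443 entries with a mean of at least 10. The 5 nearest were mir-496a, mir-770, mir-666, mir-667 and mir-679, with differences from 0.37 to 0.43 and Pearson's r from 0.990 to 0.993 over the 6 libraries. Their OB values were 279.4, 228.6, 325.3, 342.9 and 388.2, respectively, and no other library of any of them was above 2.0. With 1 library high and 5 at about 0, the correlation is set by the OB library alone.

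The 5 entries nearest to mir-675 were mir-345, mir-708, mir-125a, mir-133b and mir-365-2, with differences from 0.46 to 0.70 and Pearson's r from 0.955 to 0.980 over the 6 libraries. The nearest, mir-345, had 5432 and 6119 without FFSS, 2408 and 2573 with it, 288.3 in OB and 86.6 in BM. Its libraries had the same order of groups as those of mir-675, at a higher level in each. The entry mir-708 had 2025 and 2397 without FFSS, 1273 and 1469 with it, 293.8 in OB and 17.9 in BM. The fourth nearest, mir-133b, was also on the muscle list, which was made with earlier results of these data known. These values are given as a description, since the EV libraries enter the measure of nearness.

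**Figure D3:**
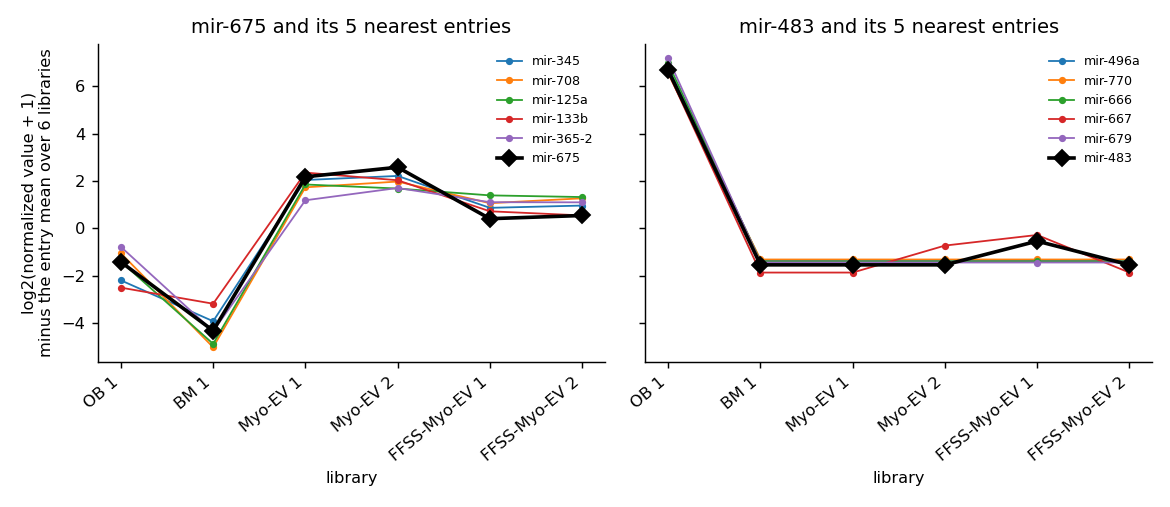
Profiles of mir-675 (left) and mir-483 (right), each with its 5 nearest entries, as log2(normalized expression value + 1) minus the mean of the entry over the 6 libraries. The mir-675 profiles have their lowest value in BM and their highest in Myo-EVs, and the mir-483 profiles have 1 high library, OB.

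Other imprinted miRNAs were examined as a list of 55 names, of which 51 entries were in the table. The list was made with earlier results of these data known. The list does not cover the whole Dlk1-Dio3 region. The entries mir-3071, mir-3072 and mir-3544 lie between Meg3 and Mirg and were not on it. Of the names listed for the region, 48 entries were found, with a summed normalized value of 246100 in OB and 33.9 in BM. The same sum was 16.0 and 19.2 in Myo-EVs against 41.0 and 49.7 in FFSS-Myo-EVs. Of the 48, 47 reached the level for the comparison with OB, and like mir-483 they did so only through their OB value, so that their lower level in Myo-EVs was fixed by the filter and is no result. The 3 with the highest Myo-EV mean were mir-127, mir-411 and mir-379, which had 73369, 16637 and 36034 in OB and means of 3.5, 2.2 and 1.7 in Myo-EVs. Among vesicle libraries, 0 of the 48 reached the level for testing FFSS.

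The entry mir-335, hosted by the paternally expressed gene Mest, behaved alike, with 5517 in OB, 28.2 in BM and from 0 to 3.3 in the EV libraries. Members of the Gnas locus were present in the vesicles. The entry mir-298 was 1658 in OB, 115.6 in BM, 195.7 and 196.4 in EVs without FFSS, and 123.5 and 124.0 in EVs with it. Its log2 fold change in EVs was -0.78, and it was called lower (adjusted p = 0.00305 in edgeR), as were 18.4% of the entries tested. The call was lost without the first or the second FFSS-Myo-EV library. Its neighbour mir-296 was 680.4 in OB, 90.2 in BM, 117.4 and 152.1 in EVs without FFSS, and 150.4 and 129.6 in EVs with it, with a log2 fold change of -0.06 (adjusted p = 0.907 in edgeR). Both were over 4-fold lower in Myo-EVs than in OB, as were 28.2% of the 422 entries compared.

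**Figure D4:**
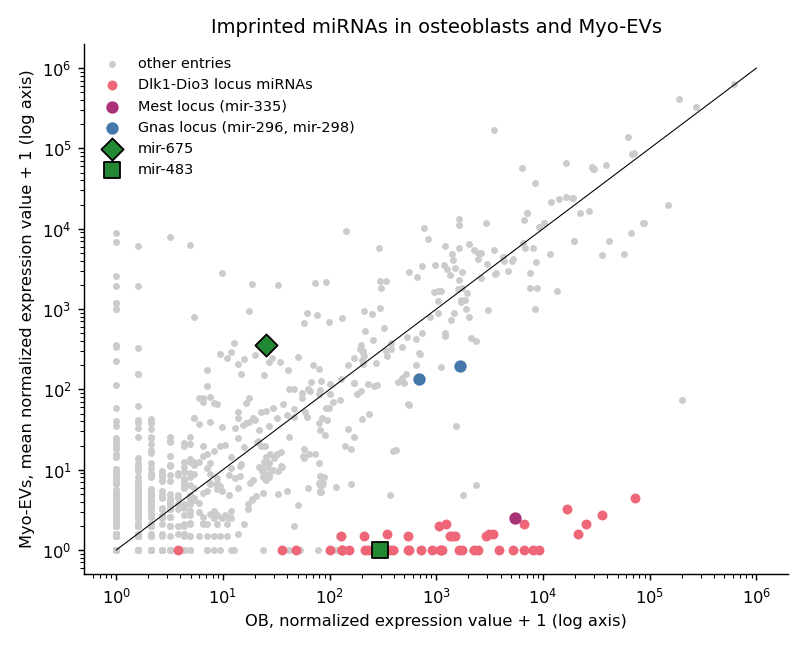
Normalized expression value + 1 in OB against the mean of Myo-EVs + 1 (both log axes) for all 1006 entries, with a line where the 2 are equal. The members and the listed imprinted miRNAs are in colour. Imprinted miRNAs that are not on the list, such as mir-3071, are drawn in grey with the other entries. The square for mir-483 lies in the row of Dlk1-Dio3 entries at the bottom with 292.7 in OB, and the diamond for mir-675 lies above the line at 24.3 in OB and 353.3 in Myo-EVs.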

How the data were processed

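The authors grouped 36-base reads by sequence and matched them to miRBase in CLC Genomics Workbench 10.1.1. They deposited whole-number counts per precursor entry. They also deposited a normalized expression value, a signal made by scaling the counts to a common total and then by means with 5% trimming. In the file it equals the count times 1 constant per library. The miRBase release, mismatches and treatment of multiple matches are not given in the sources used here.

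The 2 members and all lists were chosen with earlier results of these data known. Entries with a mean normalized value of at least 10 over the 4 EV libraries were tested on the counts with edgeR 4.0.16 (R 4.3.3, TMM, quasi-likelihood test, Benjamini-Hochberg adjustment, threshold 0.05). The members' log2 fold changes used a prior count of 1. For ratios to OB and BM, the mean of the Myo-EV mean and the cell value had to reach 10, and 3 counts or fewer were set to 3. Sequences and positions came from RefSeq (GRCm38.p6) for 803 of 1006 entries and from GENCODE M21. Entries named are the members, the 5 nearest to each, the 3 of highest Myo-EV mean per imprinted locus, and markers. Intervals used scipy 1.17.1. Alternatives included DESeq2 1.42.0 and limma 3.58.1.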

Additional observations from a re-analysis of the deposited data

How the results depend on the processing

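The log2 fold change of mir-675 between FFSS-Myo-EVs and Myo-EVs kept its sign in all 13 alternatives, from -2.17 to -1.81. It moved by more than the spread between replicates with the GC correction (-1.82) and with the GC correction and the replicate block together (-1.81), and lay between -2.17 and -1.88 with 1 EV library left out in turn. With the replicate block alone it was -2.04, and 110 entries were called against 108. Same-numbered libraries deviated together with a correlation of 0.209 over the 354 entries, but no source says that a number marks a shared culture, so the pairing was not used. The number called lay between 44 and 132 with 1 EV library left out in turn, where the lone library is assumed to vary like the other group, and from 83 to 111 otherwise, and the 2 lowest values, 44 and 45, came with 1 FFSS-Myo-EV library left. In their 5 alternatives each, the log2 ratios of mir-675 lay between 3.65 and 4.05 to OB and between 6.96 and 7.4 to BM. Leaving out 1 Myo-EV library could move them no further than the difference between the 2 replicates. The log2 bound of mir-483 to OB lay between -6.64 and -6.35. With 0 counts in both Myo-EV libraries it has no replicate spread, and it follows the OB count, the floor and the scaling alone. With a level of 100 in place of 10, fewer entries were compared, and 58 were over 4-fold higher and 72 lower in Myo-EVs than OB, against 102 and 119, and 71 higher and 46 lower than BM, against 122 and 100. Fold changes of mir-483 in EVs, its ratio to BM and the fold change of the ratio of the 2 entries were not formed, because mir-483 had 0 or 1 counts there. The floor of 3 counts was highest in the second Myo-EV library (3.59), followed by the second FFSS-Myo-EV library (3.32). The BM value of mir-675 rests on 6 counts in the deepest library.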

Other observations

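Low values of the Dlk1-Dio3 miRNAs were present in the vesicles, and mir-127, the highest of them in OB, was at 1.0 and 6.0 in Myo-EVs against 8.0 and 12.2 in FFSS-Myo-EVs. Of the 48 listed entries, 43 had 3 counts or fewer in each EV library and 22 had 0 in all of them. These levels are near the limit of 3 counts per library, and no fold change was formed from them.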
